A study of Mus musculus with 6 samples.

Results

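The genes described here are 46 mouse genes of the extracellular matrix, its receptors and the epithelial-mesenchymal programme. They are a list of named genes, drawn up with earlier results of these data known: collagens, laminins and other matrix proteins, enzymes and inhibitors of matrix turnover, integrins and other matrix receptors, TGF-beta ligands and receptors, the transcription factors Snai1, Snai2, Zeb1 and Twist1, and the markers Cdh1, Cdh2 and Vim. All 46 were matched to an Ensembl gene among the 55487 gene rows of the count tables, and 41 had enough counts to be tested between the genotypes. The study sequenced RNA from mouse liver hepatocytes that were homozygous for the AEG-1-C75S allele or wild type (WT) at that locus, with 3 libraries of each genotype. AEG-1 is the protein made by the Mtdh gene, and C75S names a cysteine replaced by serine, the residue that the study's title ties to palmitoylation, the attachment of a fatty acid to a cysteine. Both genotypes were bred from heterozygous parents, the animals were adults of 6 to 8 weeks, RNA was taken 48 h after the cells were isolated, and all 6 libraries carry the treatment label Control. The labels name no tissue-specific driver for the allele, so any other liver cell that came through the isolation is taken to carry it too. A count per gene does not read the altered base, so the genotype labels were taken as given.

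Hepatocytes in the liver face a sparse matrix in the space of Disse, rich in fibronectin and type IV collagen rather than a dense basement membrane, while most fibrillar collagen of the liver is made by stellate cells and fibroblasts. Integrins are pairs of an alpha and a beta chain that bind matrix outside the cell and couple it to actin inside, and syndecans and CD44 bind matrix alongside them. TGF-beta signals through its paired receptors to SMAD proteins, and in cultured epithelial cells it is a known inducer of Snail and Zeb factors, which repress E-cadherin (Cdh1) as cells take on vimentin and other mesenchymal features. Isolated hepatocytes plated in culture are known to lose part of their differentiated state and to take up some of these features.

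The 6 libraries held between 16944723 and 21044292 counts assigned to genes, so that 3 counts, the lowest number read as signal, corresponded to 0.142 to 0.172 CPM (counts per 1000000 counts assigned to genes, after TMM scaling) in a library. Unmapped reads were 4.75% to 5.81% of each C75S library and 4.37% to 4.59% of each WT library. Hepatocyte markers were abundant in every library, with Alb (albumin) at 55643 to 70067 CPM. Of the 8 hepatocyte markers, all tested, 1 was called, Cyp2e1, higher in C75S without overlap. Its log2 fold change was 0.31 (edgeR adjusted p = 0.00908), and the call was lost without WT replicate 3. Alb was at a log2 fold change of -0.15 with overlap (edgeR unadjusted p = 0.0439, adjusted p = 0.347). Of the 8, 5 had positive and 3 negative log2 fold changes. The list of markers of stellate cells summed to 53.5 to 70.4 CPM in C75S and 69.0 to 91.9 CPM in WT, nearly all of it Reln. Rgs5 and Dcn were present at a low level, at 1.12 to 1.72 and 0.802 to 2.01 CPM over all libraries. The markers Gfap (0 counts in all), Des (up to 0.160 CPM) and Pdgfrb (up to 0.214 CPM) were at or near 0. Kupffer cell and macrophage markers summed to 97.2 to 141 CPM and 104 to 135 CPM, nearly all of it Cd68, with Adgre1 at up to 0.0485 CPM and Clec4f at up to 0.190 CPM. Endothelial markers summed to 44.7 to 56.0 CPM in C75S and 44.2 to 53.9 CPM in WT, with Stab2 the largest part, but 6 of the 9 tested had a positive log2 fold change, and the median of the 9 was 0.34. Cholangiocyte markers did not overlap between the groups, at 133 to 157 CPM in C75S and 113 to 129 CPM in WT, with Krt19 called higher (1 of 7 tested) and with Cftr at 0 counts and Epcam at up to 0.570 CPM. Of the 12 genes in each of those 4 lists, 3 stellate, 2 Kupffer, 9 endothelial and 7 cholangiocyte markers were abundant enough to test. The stellate, Kupffer and endothelial lists had 0 genes called by edgeR, by DESeq2 or by limma-voom. Over all genes tested, edgeR called 3.11%, so 0 calls in lists this short says little. At an unadjusted edgeR p under 0.05 were 0 of 3 stellate, 0 of 2 Kupffer, 2 of 9 endothelial and 3 of 7 cholangiocyte markers. The share over all genes was 13.4%. Of 6 lymphocyte markers, 4 had 0 counts in all libraries and 0 were abundant enough to test. In bulk RNA, fewer cells of a type and less RNA per cell cannot be told apart. Separate mice are not stated in the labels for the 3 libraries of each genotype, so p-values measure the spread between libraries, which may be technical.

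These hepatocyte libraries held much RNA for fibronectin and for several basement membrane and receptor genes, and very little for fibrillar collagens. The 46 genes together took 1.32% to 1.46% of all gene counts, and Fn1 (fibronectin, a glycoprotein that links cells to collagen) alone made up 68.0% to 74.0% of that. To compare genes with each other, CPM values were divided by the length of each gene's exons in kilobases. On that per-kilobase scale the mean level over the 6 libraries was 871 for Fn1, 175 for Itgb1, 104 for Col18a1, 101 for Vim, 67.5 for Spp1, 67.3 for Sdc4 and 56.5 for Sdc1. Fn1 stood above 99.7% of the tested genes. At the other end, the 4 fibrillar collagen genes lay between 0.0272 and 0.0854, and Mmp2 had 1 count in all libraries together.

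**Figure D1:**
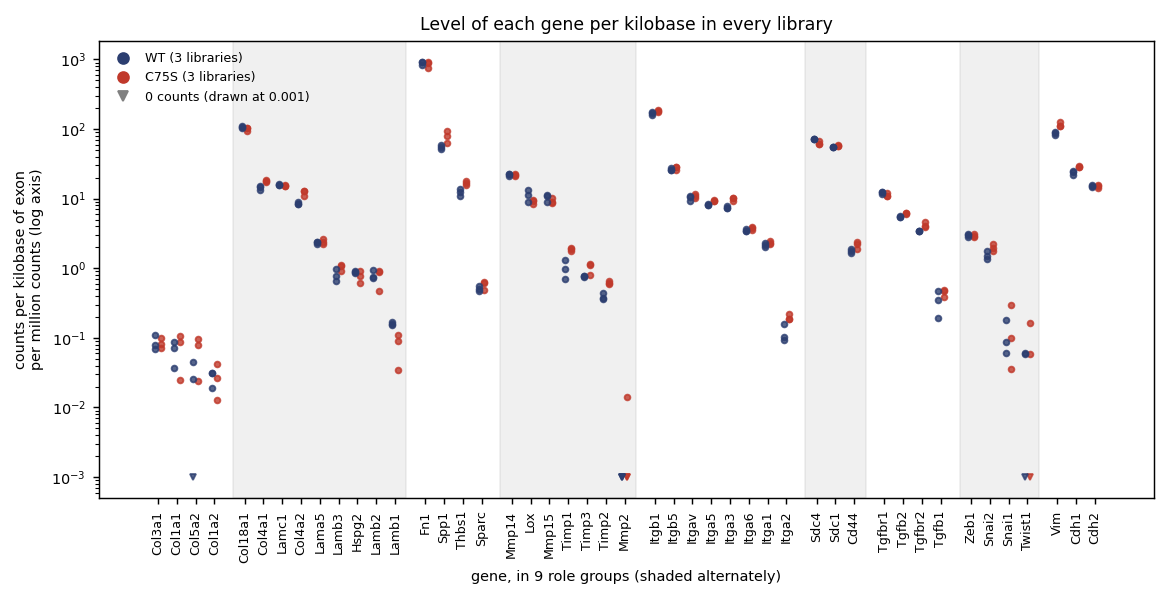
Level of each of the 46 genes in every library, in CPM per kilobase of exon on a log axis, ordered by role group and then by level; blue points are the 3 WT and red points the 3 C75S libraries, and triangles mark libraries with 0 counts. The mean level runs from 871 for Fn1 to 0.0272 for Col1a2, with Mmp2 at 0 counts in 5 of its 6 libraries.

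Between the genotypes, 6 of the 41 tested genes rose in C75S and 1 fell at an adjusted p under 0.05. Col4a1, Col4a2, Thbs1, Itga3, Cdh1 and Vim were higher by 22.5% to 42.4%, and Sdc4 was lower by 12.3%. These 7 called genes were 17.1% of those tested, against 3.11% of all 12741 genes tested (edgeR's quasi-likelihood test, Benjamini-Hochberg adjustment over all genes, threshold 0.05). The 6 higher were 14.6% against 1.74% of all genes, and the 1 lower was 2.44% against 1.37%. At an unadjusted p under 0.05 there were 19 of the 41, or 46.3%, against 13.4% of all genes. In 17 of the 41 (41.5%, against 9.02% of all genes) every C75S library was above every WT library, and in 2 (4.88%, against 8.96%) every one was below. The median log2 fold change was 0.12 over the 41 genes and -0.003 over all genes tested, with 28 of the 41 positive and 13 negative.

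Of the 41 tested genes, 39 were at or above the filter's level (0.481 CPM before TMM scaling) in all 6 libraries, and 0 passed through the level of 1 genotype alone. The genes not tested were Col1a2, Col5a2, Mmp2, Snai1 and Twist1. Leaving out any 1 library left 6 to 8 of the genes called, and the 6 that were higher kept their call each time. The call of Sdc4 was lost in 5 of those 6 fits, as given with its values.

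**Figure D2:**
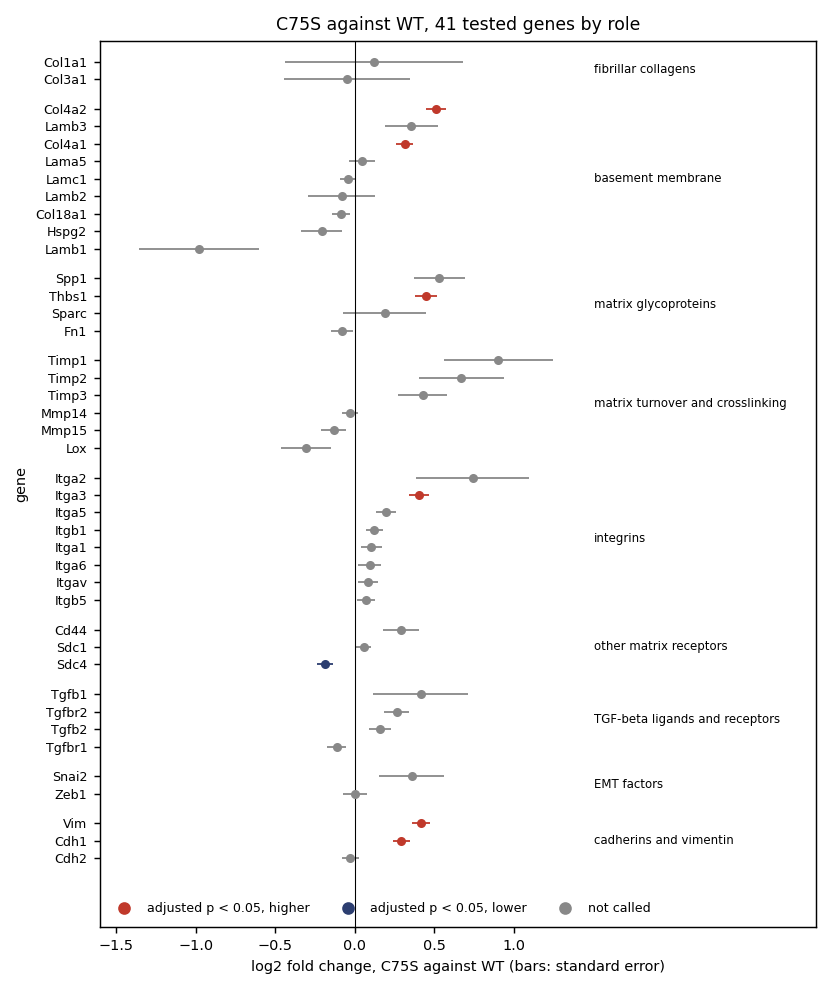
Log2 fold change of C75S against WT for the 41 tested genes, grouped by role, with bars of 1 standard error; red points were called higher, blue points lower and grey points were not called at an adjusted p under 0.05. The called genes run from 0.51 for Col4a2 to -0.19 for Sdc4, while low genes such as Lamb1 and Timp1 have larger fold changes with wide bars.

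Fibrillar collagens, which form the tensile fibres of scar and connective tissue, were barely detected and showed no called difference. Col3a1, the chain of type III collagen and the highest of the 4, was at 0.804, 0.712 and 0.963 CPM in C75S and at 1.09, 0.780 and 0.679 CPM in WT. Col1a1, a chain of type I collagen, was at 0.689, 0.569 and 0.160 CPM in C75S and at 0.475, 0.244 and 0.582 CPM in WT. The groups overlapped in both genes, and the log2 fold changes were -0.05 ± 0.40 (SE) and 0.12 ± 0.56. Col1a2, the partner chain of Col1a1, had 3 to 9 counts in each library, and Col5a2, a chain of type V collagen that is built into such fibres, had 4, 16 and 17 counts in C75S against 0, 5 and 9 in WT. Of the 2 tested fibrillar genes, 0 were called by edgeR, DESeq2 or limma-voom and 0 had an unadjusted p under 0.05.

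Among basement membrane genes the 2 type IV collagen chains rose and the rest did not pass the test. Type IV collagen is the network-forming collagen of basement membranes, and its alpha1 and alpha2 chains are made from a pair of genes that lie head to head. In GRCm38, Col4a1 (ENSMUSG00000031502) is on chromosome 8 at 11198423 to 11312826 on the minus strand, and Col4a2 (ENSMUSG00000031503) is on chromosome 8 at 11312805 to 11449287 on the plus strand. Both are protein coding, and the counting was by strand.

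Col4a1 was at 132.3, 137.2 and 131.5 CPM in C75S and at 99.9, 112.9 and 110.2 CPM in WT, so that every C75S library was above every WT library. The means were 134 ± 3.11 (SD, n = 3) and 108 ± 6.82 (SD, n = 3), a change of 0.31 ± 0.05 on the log2 scale (SE; edgeR adjusted p = 0.00078). Col4a2 was at 85.8, 85.2 and 73.0 CPM in C75S and at 56.3, 60.0 and 55.1 CPM in WT, again without overlap. Its means were 81.3 ± 7.21 and 57.1 ± 2.57, a change of 0.51 ± 0.06 on the log2 scale (edgeR adjusted p = 1.97e-05), the smallest adjusted p of the 41 genes.

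Of the other 7 basement membrane genes none was called. Col18a1, the core protein of a basement membrane collagen that yields endostatin and the highest of the group per kilobase, was at 662, 734 and 735 CPM in C75S and at 717, 764 and 785 CPM in WT, with overlap. Laminins are basement membrane proteins of an alpha, a beta and a gamma chain. Lamc1, the gamma1 chain, was at 127 to 131 CPM in C75S and 130 to 136 CPM in WT, and Lama5, the alpha5 chain, at 25.1 to 29.7 and 25.2 to 27.3 CPM. Both had log2 fold changes within 1 standard error of 0, at -0.04 ± 0.05 and 0.04 ± 0.08.

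Lamb1, the beta1 chain, was at 0.345, 1.09 and 0.909 CPM in C75S and at 1.66, 1.56 and 1.504 CPM in WT. Every C75S library was below every WT library, but the gene rested on 6 to 35 counts a library, and its log2 fold change of -0.98 ± 0.37 did not pass (edgeR unadjusted p = 0.015, adjusted p = 0.2). Lamb3, the beta3 chain of epithelial laminin, was at a log2 fold change of 0.36 ± 0.17 with overlap between the groups (edgeR unadjusted p = 0.0422, adjusted p = 0.34). Lamb2, the beta2 chain, and Hspg2, the heparan sulfate proteoglycan perlecan, were at -0.08 ± 0.21 and -0.21 ± 0.13. The median log2 fold change of the 9 genes was -0.04.

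Endothelial cells also make type IV collagen. Of the 9 tested endothelial markers, 3 had all C75S libraries above all WT libraries (9.02% of all genes did). Pecam1 was at 2.87, 2.89 and 3.798 CPM in C75S and 1.14, 2.58 and 2.18 CPM in WT, Kdr at 0.746, 0.901 and 1.07 against 0.712, 0.487 and 0.485 CPM, and Lyve1 at 2.09 to 2.99 against 1.17 to 1.66 CPM. The summed level overlapped between the genotypes, as did its largest part, Stab2, at 20.5 to 30.2 and 21.6 to 32.7 CPM. Kdr rested on 10 to 20 counts a library. Fcgr2b, Egfl7 and Stab2 had negative log2 fold changes, of -0.41, -0.12 and -0.09. The part of endothelial markers in the collagen difference was not tested.

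Among the matrix glycoproteins Thbs1 rose. Thbs1 (ENSMUSG00000040152; GRCm38 chromosome 2, 118111876 to 118127133, plus strand) encodes thrombospondin-1, an adhesive protein that can activate latent TGF-beta. It was at 103.5, 96.5 and 109.2 CPM in C75S and at 84.3, 75.1 and 67.1 CPM in WT, without overlap. The means of 103 ± 6.33 and 75.5 ± 8.57 (SD, n = 3 each) gave a change of 0.45 ± 0.07 on the log2 scale (edgeR adjusted p = 0.000641).

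Fn1 was at 8737, 10327 and 10622 CPM in C75S and at 9684, 10754 and 10924 CPM in WT. The lowest library was C75S replicate 1, the other C75S libraries lay inside the WT range, and the log2 fold change was -0.08 ± 0.07 (edgeR adjusted p = 0.693). Spp1, osteopontin, a secreted integrin ligand that cholangiocytes and activated macrophages also make, was at 157, 133 and 105 CPM in C75S and at 83.9, 96.5 and 92.5 CPM in WT. The groups did not overlap, but the C75S libraries were spread widely, and the log2 fold change of 0.53 ± 0.16 did not pass (edgeR unadjusted p = 0.0201, adjusted p = 0.235). Without C75S replicate 1 it was called at 0.39 (adjusted p = 0.0481), and without C75S replicate 3 at 0.67 (adjusted p = 2.87e-06). Of its exon bases, 18.8% overlap the same-strand gene Gm42793, so its count is uncertain. The cholangiocyte markers were also higher in every C75S library, with Krt19 at 10.6, 8.21 and 9.74 CPM against 5.51, 5.70 and 5.19 CPM in WT, and their part in the Spp1 values was not tested. Sparc, a collagen-binding matricellular protein, was at 1.87 to 2.42 CPM in C75S and 1.80 to 2.09 CPM in WT, a log2 fold change of 0.19 ± 0.26.

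Of the genes for matrix turnover and crosslinking, 0 of 6 tested were called by edgeR, DESeq2 or limma-voom, although 3 had an unadjusted p under 0.05. Those 3 were the tissue inhibitors of metalloproteinases, all low and all with every C75S library above every WT library. Timp1 was at 1.55, 1.66 and 1.77 CPM in C75S and 0.617, 0.877 and 1.16 CPM in WT, a log2 fold change of 0.90 ± 0.34 (edgeR unadjusted p = 0.0143, adjusted p = 0.194). Timp2 was at 2.41, 2.32 and 2.57 against 1.47, 1.71 and 1.41 CPM, a log2 fold change of 0.67 ± 0.27 (unadjusted p = 0.0194, adjusted p = 0.231). Timp3 was at 6.55, 9.06 and 9.25 against 6.31, 6.04 and 6.21 CPM, a log2 fold change of 0.43 ± 0.15 (unadjusted p = 0.00963, adjusted p = 0.155). In Timp3 the gap between the groups was small, since C75S replicate 1 lay close to WT replicate 1.

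The enzymes that TIMPs inhibit had overlapping levels. Mmp14, a membrane-bound metalloproteinase that cleaves collagen and the highest of the group per kilobase, was at 129.7, 132.7 and 124.2 CPM in C75S and at 134.9, 127.5 and 132.6 CPM in WT, a log2 fold change of -0.03 ± 0.05. Mmp15, a related membrane-bound enzyme, was at 47.6 to 56.0 and 48.9 to 60.4 CPM, a log2 fold change of -0.13 ± 0.08. Mmp2, a secreted gelatinase, had a single count, in C75S replicate 2. Lox, the lysyl oxidase that crosslinks collagen and elastin, was at 44.2, 39.6 and 45.8 CPM in C75S and at 42.3, 64.5 and 53.3 CPM in WT, with overlap through WT replicate 1. Its log2 fold change was -0.31 ± 0.16 (edgeR adjusted p = 0.483), and without WT replicate 1 it was called lower at -0.45 (adjusted p = 0.00552).

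All 8 integrin chains had positive log2 fold changes, from 0.07 to 0.74, and 1 of them, Itga3, rose past the threshold. The summed integrin level was 1119 to 1171 CPM in C75S and 993 to 1078 CPM in WT, without overlap, and Itgb1 made up most of it. The median log2 fold change of the 8 was 0.11. Itga3 (ENSMUSG00000001507; GRCm38 chromosome 11, 95044474 to 95076801, minus strand) encodes the alpha3 chain, which pairs with the beta1 chain as a laminin receptor. It was at 59.0, 58.9 and 53.7 CPM in C75S and at 45.3, 42.3 and 42.1 CPM in WT, without overlap. The means of 57.2 ± 3.02 and 43.2 ± 1.78 (SD, n = 3 each) gave a change of 0.40 ± 0.06 on the log2 scale (edgeR adjusted p = 0.000322).

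Itgb1, the beta1 chain shared by most matrix-binding integrins, was at 739, 724 and 767 CPM in C75S and at 647, 691 and 711 CPM in WT. The groups did not overlap, but the log2 fold change of 0.12 ± 0.05 did not pass (edgeR unadjusted p = 0.0302, adjusted p = 0.291). Itga5, the alpha chain of the main fibronectin receptor, was at 47.4, 46.2 and 45.9 CPM in C75S and at 40.3, 41.3 and 40.3 CPM in WT, with little spread within each group and no overlap. Its log2 fold change was 0.19 ± 0.06 (edgeR unadjusted p = 0.00527, adjusted p = 0.113). Itga2, an alpha chain of collagen receptors, rested on 14 to 28 counts a library and was at a log2 fold change of 0.74 ± 0.36 without overlap (unadjusted p = 0.0484, adjusted p = 0.365).

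The other 4 chains overlapped between the groups. Itga1, the alpha chain of a collagen receptor found on hepatocytes, was at 0.10 ± 0.07 on the log2 scale. Itga6, a laminin receptor chain, was at 0.09 ± 0.07, Itgav, the chain of RGD-binding receptors that can release active TGF-beta, at 0.09 ± 0.06, and Itgb5, a beta partner of Itgav, at 0.07 ± 0.05.

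**Figure D3:**
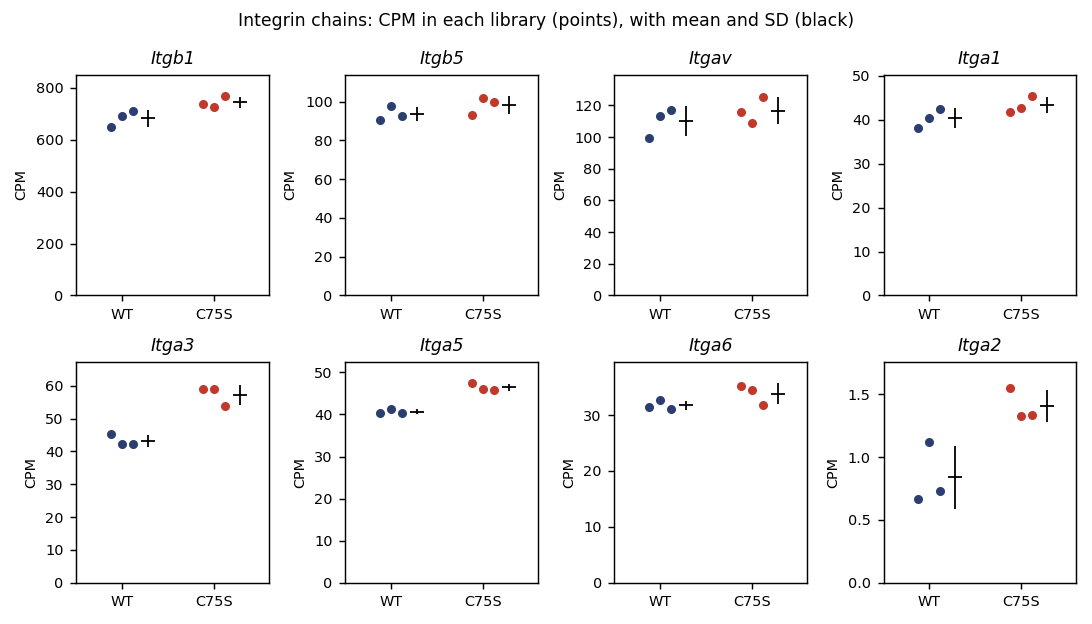
CPM of the 8 integrin chains in each library, with blue WT and red C75S points and the mean and SD of 3 libraries in black; each axis starts at 0. Itga3 separates the groups at 53.7 to 59.0 against 42.1 to 45.3 CPM and Itga5 by a smaller gap, while Itgav, Itga1, Itga6 and Itgb5 overlap.

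The promoter of Itga3 is shown because, of the 6 windows of 5 called genes in the RefSeq table, it was the 1 with letters matching SMAD and Snail motifs. Itga3 has 2 windows in that table, and the other, before a start inside the gene (its 250 upstream bases are chr11:95069199-95069448), held none of the motifs searched and is not printed. The 163 bases printed end 87 bases before the RefSeq start of the transcript (chr11:95076802-95076964, minus strand, GRCm38.p6), and the rest of the window lies in annotated exons. Capitals mark CAGGTG, an E-box form bound by Snail proteins, running into TGTCTG, the short SMAD motif, with which it shares letters.
Itga3: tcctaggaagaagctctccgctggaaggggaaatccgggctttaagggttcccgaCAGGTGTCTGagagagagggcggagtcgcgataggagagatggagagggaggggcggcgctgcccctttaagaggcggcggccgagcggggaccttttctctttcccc
These motifs are short and common, and a match is a description of letters, not of binding. RefSeq promoter windows of 250 bases before to 50 after a start were at hand for 34 of the 46 genes (39 windows), among 32851 windows in all. On either strand, CAGACA or TGTCTG was in 13 of the 39 windows (33.3%) against 21.0% of all windows, and CACCTG or CAGGTG in 10 (25.6%) against 20.2%. TATAAA or TTTATA was in 5 (12.8%) against 13.6%, with Vim the called gene among them. The AP-1 letters TGACTCA or TGAGTCA were in 0 of the 39 against 5.2% of all windows, and the SMAD palindrome GTCTAGAC in 0 against 0.213%.

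Of the 3 other matrix receptors Sdc4 fell, and it was the 1 called gene of the 41 that was lower in C75S. Sdc4 (ENSMUSG00000017009; GRCm38 chromosome 2, 164424247 to 164443887, minus strand) encodes syndecan-4, a heparan sulfate proteoglycan that joins integrins in binding fibronectin at focal adhesions. It was at 154.4, 156.2 and 170.0 CPM in C75S and at 182.3, 182.1 and 183.6 CPM in WT, without overlap. The means of 160 ± 8.55 and 183 ± 0.836 (SD, n = 3 each) gave a change of -0.19 ± 0.05 on the log2 scale (edgeR adjusted p = 0.034). Its call was the least stable of the 7: without C75S replicate 1, without C75S replicate 2 or without any 1 of the WT libraries the adjusted p was 0.0639 to 0.157, with the direction kept.

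The 250 bases before the RefSeq start of Sdc4 (chr2:164443189-164443438, minus strand, GRCm38.p6) held none of the motifs searched, so no letter is in capitals. That start lies inside the annotated gene, which begins at 164443887 on the minus strand. The bases shown are thus within the gene, outside annotated exons, and not upstream of its annotated start.
Sdc4: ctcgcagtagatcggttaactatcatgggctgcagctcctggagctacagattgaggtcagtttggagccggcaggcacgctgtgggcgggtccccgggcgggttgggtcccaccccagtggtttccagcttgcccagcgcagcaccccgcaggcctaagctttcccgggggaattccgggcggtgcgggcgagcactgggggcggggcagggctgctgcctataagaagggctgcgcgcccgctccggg
Sdc1, syndecan-1, the main syndecan of epithelial cells, was at 216, 227 and 215 CPM in C75S and at 212, 209 and 213 CPM in WT. Its groups did not overlap, but the difference was small, at 0.06 ± 0.05 on the log2 scale (edgeR adjusted p = 0.676). Cd44, a receptor for hyaluronan and osteopontin, was at 16.1, 15.04 and 12.9 CPM in C75S and at 11.3, 12.04 and 12.7 CPM in WT, a log2 fold change of 0.29 ± 0.11 (unadjusted p = 0.0154, adjusted p = 0.204). The lowest C75S library and the highest WT library of Cd44 nearly met.

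TGF-beta ligands and receptors had 0 of 4 genes called by edgeR, DESeq2 or limma-voom and 2 at an unadjusted p under 0.05. Tgfbr1, the signalling type I receptor kinase and the highest of the 4 per kilobase, was at 79.5, 72.2 and 70.3 CPM in C75S and at 80.6, 82.3 and 77.3 CPM in WT, a log2 fold change of -0.11 ± 0.06 with overlap (edgeR adjusted p = 0.396). Tgfbr2, the ligand-binding type II receptor, was at 37.6, 32.0 and 33.0 CPM in C75S and at 28.4, 28.5 and 28.4 CPM in WT. The groups did not overlap, and the log2 fold change of 0.26 ± 0.08 missed the threshold (edgeR unadjusted p = 0.0024, adjusted p = 0.0659). Tgfb2, one of the TGF-beta ligands, was at 35.1 to 36.0 CPM in C75S and 31.2 to 32.5 CPM in WT, a log2 fold change of 0.16 ± 0.07 without overlap (unadjusted p = 0.0328, adjusted p = 0.303). Tgfb1, the ligand best known in fibrosis, was low and scattered, at 1.93 to 2.47 and 0.975 to 2.38 CPM.

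The 4 transcription factors of the epithelial-mesenchymal programme were low or level between the genotypes, and 0 of the 2 that could be tested were called by edgeR, DESeq2 or limma-voom, with 0 at an unadjusted p under 0.05. Zeb1, a repressor of Cdh1, was at 31.6, 30.2 and 29.3 CPM in C75S and at 31.6, 30.4 and 29.1 CPM in WT, a log2 fold change of 0.00 ± 0.08. Its values in the 2 groups covered nearly the same range. Snai2, the Snail-family factor also called Slug, was at 3.56, 3.94 and 4.44 CPM in C75S and at 2.71, 3.61 and 3.01 CPM in WT, a log2 fold change of 0.36 ± 0.20 with overlap (edgeR unadjusted p = 0.0926, adjusted p = 0.483). Snai1, the founding Snail factor, had 1, 10 and 3 counts in C75S and 3, 6 and 2 in WT, and Twist1, a basic helix-loop-helix factor, had 0, 2 and 5 counts and 0, 2 and 2. A difference in Snai1 or Twist1 was not detectable at this depth.

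The epithelial marker Cdh1 and the mesenchymal marker Vim both rose in C75S. Cdh1 (ENSMUSG00000000303; GRCm38 chromosome 8, 106603351 to 106670246, plus strand) encodes E-cadherin, the adhesion protein of epithelial junctions. It was at 130.6, 131.5 and 134.8 CPM in C75S and at 100.5, 110.9 and 112.7 CPM in WT, without overlap and with little spread in C75S. The means of 132 ± 2.17 and 108 ± 6.56 (SD, n = 3 each) gave a change of 0.29 ± 0.05 on the log2 scale (edgeR adjusted p = 0.0014). Vim (ENSMUSG00000026728; GRCm38 chromosome 2, 13573927 to 13582826, plus strand) encodes vimentin, the intermediate filament of mesenchymal cells. It was at 590, 533 and 527 CPM in C75S and at 437, 416 and 385 CPM in WT, without overlap. The means of 550 ± 34.8 and 413 ± 26.0 (SD, n = 3 each) gave a change of 0.41 ± 0.06 on the log2 scale (edgeR adjusted p = 4.98e-05).

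Cdh2, N-cadherin, which hepatocytes carry beside E-cadherin, was at 121, 126 and 114 CPM in C75S and at 124, 118 and 127 CPM in WT, with overlap and a log2 fold change of -0.03 ± 0.05. Per kilobase the mean levels were 101 for Vim, 26.3 for Cdh1 and 15.1 for Cdh2. Stellate cells, endothelial cells and macrophages are rich in vimentin, and cholangiocytes in E-cadherin. The summed stellate, endothelial and Kupffer marker levels overlapped between the genotypes, each sum resting mainly on a single gene (Reln, Stab2 and Cd68). Of the endothelial list, Fcgr2b, Egfl7 and Stab2 had log2 fold changes of -0.41, -0.12 and -0.09. Pecam1, Lyve1 and Kdr (10 to 20 counts a library) lay above WT in all C75S libraries, and the median given above for the 9 tested was 0.34. The summed cholangiocyte markers were also higher in every C75S library, and the part of these cells in the Vim and Cdh1 differences was not tested.

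**Figure D4:**
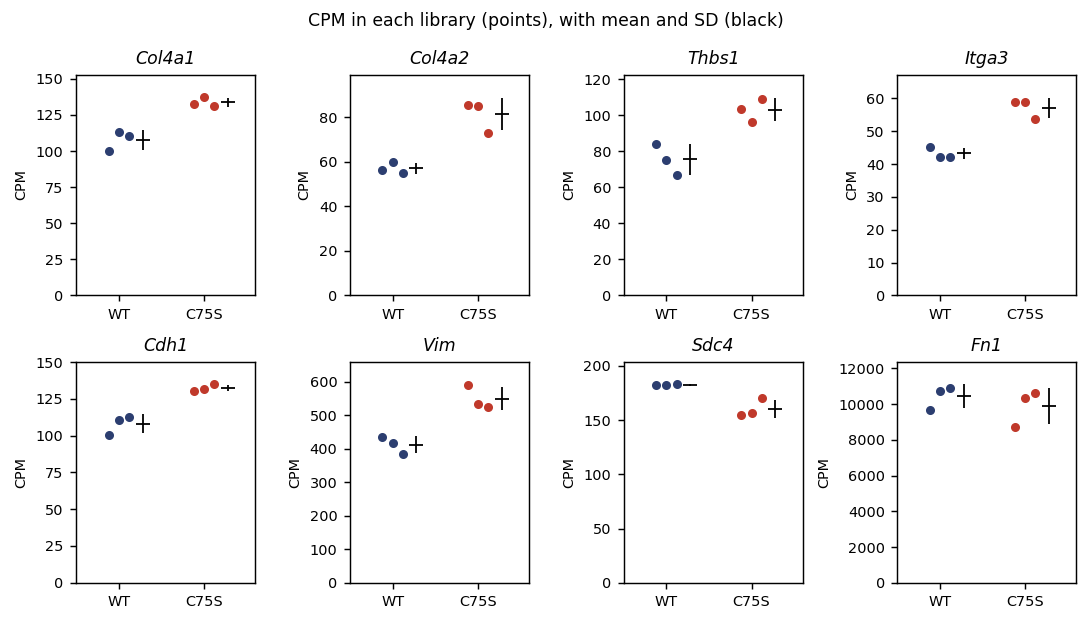
CPM of the 7 called genes and of Fn1, the most abundant, in each library, with blue WT and red C75S points and the mean and SD of 3 libraries in black; each axis starts at 0. The 6 higher genes and Sdc4 show no overlap between the groups, while Fn1 ranges over 8737 to 10622 CPM in C75S and 9684 to 10924 CPM in WT.

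Genes of the same pathways outside the 46 were read from 6 lists with 140 genes, of which 96 were tested. Of these 10 rose and 1 fell, or 11.5% against 3.11% of all genes, and the median log2 fold change over the 96 was 0.08. Without Itgb6, the 1 gene of the 96 that passed the filter through the level of 1 genotype alone, 9 of 95 rose and 1 fell (10.5%). The list of other epithelial-mesenchymal and junction genes had 4 of 10 tested called, all higher. Krt8 and Krt18, the paired keratins of hepatocytes, were at 2137 to 2268 against 1807 to 1853 CPM and at 2524 to 2603 against 2006 to 2169 CPM, log2 fold changes of 0.26 ± 0.05 and 0.29 ± 0.05 (edgeR adjusted p = 0.00551 and 0.00251). Tagln, an actin-binding protein of smooth muscle and activated mesenchymal cells, was at 46.2, 47.5 and 55.9 CPM in C75S and at 31.4, 32.2 and 35.2 CPM in WT, a change of 0.60 ± 0.08 on the log2 scale (edgeR adjusted p = 2.57e-05). Acta2, smooth muscle actin, was at 4.996, 4.46 and 4.49 CPM in C75S and at 3.23, 2.34 and 2.28 CPM in WT, a change of 0.82 ± 0.21 on the log2 scale (edgeR adjusted p = 0.0255). The edgeR adjusted p of Acta2 was above 0.05 in 4 of the 6 leave-one-out fits, at up to 0.116, that of Tagln was 0.0616 with unstranded counts, and that of Krt8 was 0.0568 without WT replicate 2.

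Among other genes of integrin adhesion, 2 of 19 tested focal adhesion genes rose and 0 fell by edgeR, while DESeq2 and limma-voom also called Tns1 lower. Actn1, the actin crosslinker alpha-actinin-1, was at 328, 287 and 304 CPM in C75S and at 247, 239 and 234 CPM in WT, a change of 0.35 ± 0.05 on the log2 scale (edgeR adjusted p = 0.000147). Tns1, tensin-1, which links integrins to actin, was at 447, 474 and 474 CPM in C75S and at 506, 537 and 532 CPM in WT, without overlap, a change of -0.17 ± 0.05 that missed the threshold (edgeR adjusted p = 0.0592). Bcar1, of the same list, missed it in the other direction, at 0.19 ± 0.05 without overlap (edgeR adjusted p = 0.0592). It was called higher with no filter beyond 1 count, with the replicate block and without WT replicate 1. Flna, filamin A, which ties integrins to actin, was at 1025, 995 and 1049 CPM against 900, 893 and 848 CPM, a log2 fold change of 0.22 ± 0.05 (adjusted p = 0.0201). In the list of other matrix genes and receptors, 2 of 21 tested rose. They were Hmmr, a hyaluronan receptor that is also a protein of the mitotic spindle, at 3.10 to 4.31 against 1.36 to 2.18 CPM, and Itgb6, the beta6 integrin chain of epithelia, at 1.03, 1.61 and 0.695 against 0.190, 0.244 and 0.243 CPM. Itgb6 rested on 4 or 5 counts in each WT library and passed the filter through its C75S level, and its log2 fold change of 2.29 ± 0.50 (edgeR adjusted p = 0.00972) is imprecise. The edgeR adjusted p of Flna, Hmmr and Itgb6 was above 0.05 in 1 to 3 of the leave-one-out fits, at up to 0.119, 0.132 and 0.124.

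The TGF-beta signalling list had 1 of 17 tested genes called and a median of -0.02. It was Ctgf (named Ccn2 in the annotation), connective tissue growth factor, a target of TGF-beta and of YAP, at 930, 947 and 978 CPM in C75S and 850, 830 and 801 CPM in WT, a change of 0.20 ± 0.05 on the log2 scale (edgeR adjusted p = 0.029). Of 17 tested genes for collagen and matrix processing 1 fell, Plod2, a lysyl hydroxylase of collagen, at 25.3, 21.9 and 30.01 CPM in C75S and 31.2, 43.0 and 39.1 CPM in WT. Its log2 fold change was -0.56 ± 0.13 (edgeR adjusted p = 0.0477). The adjusted p of Ctgf and Plod2 was above 0.05 in 4 and 3 of the 6 leave-one-out fits, at up to 0.145 and 0.213.

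Of 12 tested genes for other matrix proteases and their inhibitors 1 rose, Plaur, the urokinase receptor, which focuses plasmin formation at the cell surface and binds integrins. It was at 59.8, 57.9 and 58.6 CPM in C75S and at 41.3, 41.3 and 36.8 CPM in WT, with no overlap. Its log2 fold change was 0.56 ± 0.06 (edgeR adjusted p = 4.46e-06), and it kept its call in every fit tried.

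**Figure D5:**
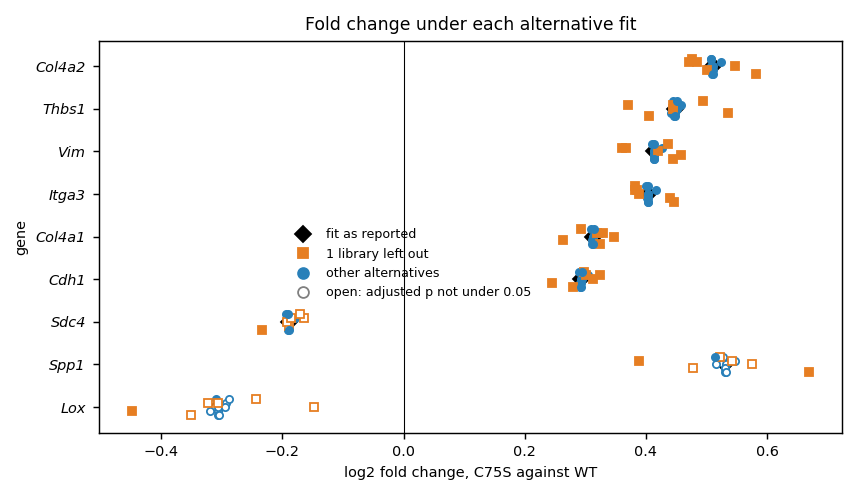
Log2 fold change of C75S against WT under each fit for the 7 called genes and for Spp1 and Lox; diamonds are the fit reported, orange squares leave out 1 library, blue circles are the other alternatives, and open symbols have an adjusted p of 0.05 or more. Col4a2, Thbs1, Vim, Itga3, Col4a1 and Cdh1 are filled throughout, while Sdc4 is open in 5 fits without a library, and Spp1 and Lox are filled in 3 and 2 fits.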

How the data were processed

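RNA from mouse hepatocytes was sequenced in 6 libraries (3 C75S, 3 WT, grouped and numbered by the sample titles). Per the labels' protocols, RNA was extracted with a QIAGEN kit and sequenced on a HiSeq3000 from Illumina TruSeq RNA libraries. The submitters' processing notes name Trim Galore 0.6.6, STAR 2.7.9a, edgeR 3.36.0 and the builds mm10 and GRCm38; the annotation release is not given in the sources used here. The authors deposited raw read counts for each Ensembl gene, with unstranded and stranded columns. Reverse-strand counts were used, since they summed to 33.3 times the forward ones. The 4 summary rows were left out; multimapping reads (18.0% to 18.5%) were not counted to genes, which lowers genes with near-identical copies.

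Symbols, exon lengths and positions came from GENCODE M21 (GRCm38), matched by identifier for 55227 of 55487 rows, and Ctgf was matched as Ccn2. The edgeR 4.0.16 (R 4.3.3) filterByExpr defaults (minimum count 10, minimum total 15) left 12741 genes. Counts were TMM-normalised and tested by a robust quasi-likelihood fit, two-sided, with genotype as the single term and Benjamini-Hochberg adjustment over all genes at 0.05. The SE is the log2 fold change divided by the square root of F. Per-kilobase levels are CPM divided by exon length. In simulated data, 200 of the 12741 genes were changed 1.5-fold, C75S against WT, and 12601 genes passed the filter. Of the changed genes that passed, 73.3% were recovered. Of the calls, 10.1% were false, more than the threshold of 0.05 aims at. The 7 genes called among the 41 described changed by less than 1.5-fold, and recovery of such smaller changes was not simulated.

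The genes described, the pathway and marker lists and the naming rule were chosen with earlier results of these data known. The rule took every gene called, the highest of each role group per kilobase, the cadherins, the 4 transcription factors, genes at an unadjusted p under 0.05 and called genes of the lists. Alternatives were other scaling, filters, counting columns, a replicate block, limma-voom (limma 3.58.1), DESeq2 1.42.0 and leaving out each library. Replicates of a genotype differed by more than counting noise in every pair. Proteins of the called genes are not reported here.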

Additional observations from a re-analysis of the deposited data

How the results depend on the processing

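In up to 15 alternatives per gene (3 genes were too low to test in 1 of them), 585 of 612 values for the 41 tested genes kept their direction and their side of the threshold, 5 lost a call, 5 gained one and 17 turned direction, all 17 in genes with no call; 34 of the 41 never turned. Col4a1, Col4a2, Thbs1, Itga3, Cdh1 and Vim kept their call in all 15, with the largest adjusted p (edgeR) 0.0106, for Cdh1 without WT replicate 1. Sdc4 kept its direction but lost its call in 5 fits without a library. Called lower or higher only under some settings were Lox (no filter beyond 1 count, -0.31, adjusted p = 0.00386; without WT replicate 1) and Spp1 (limma-voom, 0.51, adjusted p = 0.0037; without C75S replicate 1 or 3). Of the 41, 6 to 8 were called in every alternative. Over all genes, 396 were called as reported, 573 (290 higher, 283 lower) with no filter beyond 1 count, and 201 to 355 with 1 library left out (201 when WT replicate 2 was left out, 246 for WT replicate 3, 253 for C75S replicate 1); the other alternatives gave 372 to 480. The replicate numbers were not shown to pair libraries (correlation of same-numbered deviations 0.0169, -0.0404 and 0.0254). With the replicate block, 480 genes and 7 of the 41 were called.

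Log2 fold changes that turned sign were near 0 or of low genes. Zeb1 was at -0.00282 with no filter, -0.000285 at a minimum count of 30, -0.00105 with unstranded counts and -0.000123 with limma-voom, and at -0.0300 to 0.0323 with 1 library left out. Col1a1 was at -0.00805 with limma-voom and at -0.21 to 0.52 with 1 library left out. With 1 library left out, Col3a1 ranged from -0.18 to 0.17, Lamb2 from -0.22 to 0.16, Fn1 from -0.13 to 0.0028, Lama5 from -0.0223 to 0.10 and Cdh2 from -0.0648 to 0.0092. The cause was not tested. Depth limits the fibrillar collagens, Mmp2, Snai1 and Twist1, where 3 counts are 0.142 to 0.172 CPM.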

Other observations

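Pairs of the 46 genes whose products work together or in opposition were also read as ratios of their per-kilobase levels within each library, which do not depend on how libraries are scaled to each other. The 7 pairs were chosen after the values of the genes had been seen, and with 3 libraries against 3 the smallest p an exact two-sided permutation test can give is 0.1, so the ratios are a description. Cdh1 over Cdh2, E-cadherin against N-cadherin, was 1.90, 1.84 and 2.09 in C75S and 1.43, 1.66 and 1.56 in WT, without overlap (exact permutation p = 0.1, 0.28 adjusted over the 7 ratios). Tgfbr1 over Tgfbr2, the type I against the type II TGF-beta receptor, was 2.65, 2.83 and 2.67 in C75S and 3.56, 3.62 and 3.41 in WT, without overlap and with little spread in either group (exact permutation p = 0.1, adjusted 0.28). Neither receptor was called on its own, with Tgfbr1 lower and Tgfbr2 higher in their means.

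The other 5 ratios overlapped between the genotypes. Vim over Cdh1, the mesenchymal against the epithelial marker, was 4.36, 3.91 and 3.77 in C75S and 4.19, 3.62 and 3.30 in WT (exact permutation p = 0.4, adjusted 0.4). Col4a1 over Col4a2 was 1.37, 1.43 and 1.597 in C75S and 1.58, 1.67 and 1.77 in WT (p = 0.2, adjusted 0.28 by the exact permutation test). Itgb1 over the summed 6 alpha chains was 4.88 to 5.15 in C75S and 5.12 to 5.40 in WT, Itgb1 over Itgb5 was 6.18 to 6.91 and 6.15 to 6.69, and Mmp14 over Mmp15 was 2.15 to 2.39 and 2.02 to 2.36.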
